A study of Bubalus bubalis with 12 samples.

Results

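The epidermal growth factor (EGF) family was followed in the corpus luteum (CL) of buffalo cows, the progesterone-secreting gland left after ovulation. The members were all probe sets annotated with 1 of 10 symbols, which are the ligands AREG, NRG1, EREG, BTC, HBEGF and TGFA and the receptors EGFR, ERBB2, ERBB3 and ERBB4. The rule gave 7 probe sets of 24016, which stand for AREG, NRG1, BTC, EGFR and ERBB3. No probe set carried the symbol EREG, HBEGF, TGFA, ERBB2 or ERBB4 alone, and these 5 genes were not analysed here. AREG and NRG1 had been chosen by their higher values at 6 h and 18 h than at 0 h, so their values are a description and carry no test. The other 5 probe sets, for BTC, EGFR and ERBB3, were tested.

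CL were collected on day 11 of the estrous cycle from buffalo cows (Bubalus bubalis) with a history of normal cycles. The groups were untreated control animals at 0 h (n = 4) and animals sampled at 3 h (n = 2, replicates 1 and 3), 6 h (n = 3) and 18 h (n = 3) after 500 µg of cloprostenol, a prostaglandin F2α (PGF2α) analogue, given intramuscularly. No time-matched vehicle animals were used here, so time after an injection and the drug cannot be told apart. Each of the 12 arrays held RNA of 1 animal. All values are log2 expression values from robust multichip average (RMA), on which a difference of 1 is a 2-fold change. The array carries cattle probes, so differences are taken between times within a probe set. Where a level is set beside array medians, the lower quartile or percentiles, it places the array signal and not the transcript amount.

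Ligands of the EGF family are made as membrane proteins and are released by sheddases of the ADAM family. They bind receptors of the ERBB family, which pair up and signal through Ras and ERK. AREG and BTC bind EGFR, BTC also binds ERBB4, and NRG1 binds ERBB3 and ERBB4. ERBB3 has little kinase activity of its own and signals through its partner receptor. In the ovulatory follicle, AREG, EREG and BTC carry the LH signal to the cumulus cells, as shown in mice and other mammals. In the buffalo gene order, BTC, AREG, EREG and EPGN lie next to each other.

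The array medians lay between 7.09 and 7.17. The 8 luteal steroidogenic cell markers had control means above these medians, between 10.07 for the transcription factor NR5A1 and 14.95 for OXT, with STAR, which moves cholesterol into mitochondria, at 14.80 and HSD3B1, which makes progesterone, at 14.86. Control replicates 1 and 4 were closer to each other (r = 0.997, 6 probe sets over 2-fold apart) than any other replicates of 1 time (220 to 1306). They were kept as 2 animals, as labelled. Control replicate 3 stood apart from the other controls. Its mean over 6 macrophage and monocyte markers was 9.30, against 7.91 to 8.22 in the other 3 controls, and its mean over 5 follicle cell markers was 6.97, against 8.12 to 8.26. The 3 h arrays differed from each other by over 2-fold at 1306 probe sets (5.44%).

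AREG, the ligand amphiregulin, was low in control CL and high in every CL at 6 h and 18 h. The AREG values were 4.72, 5.54, 7.36 and 5.08 in control replicates 1 to 4, 4.23 and 9.76 in the 3 h replicates 1 and 3, 12.51, 12.05 and 12.79 at 6 h, and 11.57, 11.76 and 10.79 at 18 h. The 6 h and 18 h arrays lay above every control, and of the 3 h arrays, replicate 1 was the lowest of all 12 and replicate 3 lay between the controls and the later arrays. The 6 h values also lay above all 18 h values. The group means were 5.68 ± 1.17 at 0 h (SD, n = 4), 7.00 ± 3.91 at 3 h (n = 2), 12.45 ± 0.37 at 6 h (n = 3) and 11.37 ± 0.51 at 18 h (n = 3).

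Set against controls, the AREG difference was 6.77 ± 1.02 at 6 h (SE of the fit), which is 109-fold, and 5.69 ± 1.02 at 18 h, which is 51.8-fold. At 3 h the difference of 1.32 ± 1.16 was close to its own error. The AREG difference between 18 h and 6 h was -1.08 ± 1.09, a 2.11-fold lower mean, and for 8.62% of all probe sets every 18 h array lay below every 6 h array. The SE of the fit pools the spread within all times. For AREG the SD was 3.91 at 3 h, against 0.37 at 6 h and 0.51 at 18 h. The SE thus does not measure the spread of only the times compared. Over all probe sets, every 6 h array was above every control for 11.1% and every 18 h array for 11.6%. These shares stand beside AREG and NRG1 as background, since both had been chosen for these comparisons.

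Control replicate 3 raised the control mean of AREG. It was the highest control for AREG and NRG1, and also for the macrophage and monocyte markers (9.30, against 7.91 to 8.22), the endothelial markers (8.78, against 8.35 to 8.61), the lymphocyte markers (7.34, against 6.84 to 7.02) and the Schwann cell markers (7.61, against 7.19 to 7.37). It was the lowest for the luteal steroidogenic markers (13.24, against 13.54 to 13.73) and the follicle cell markers. The part of these cells in the AREG and NRG1 values was not tested. Without it, the control mean of AREG was 5.11 ± 0.41 (SD, n = 3), and AREG was 162-fold higher at 6 h and 76.5-fold higher at 18 h. With control replicates 1 and 4 averaged and counted as 1 animal, AREG was 91.5-fold higher at 6 h and 43.3-fold higher at 18 h. In 2 of 4 controls AREG lay below the lower quartile of all values, which was 5.45, and NRG1 did so in 3 of 4. Whether the controls measured either ligand above background was not tested, so the folds of AREG and NRG1 are those of the array values.

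**Figure D1:**
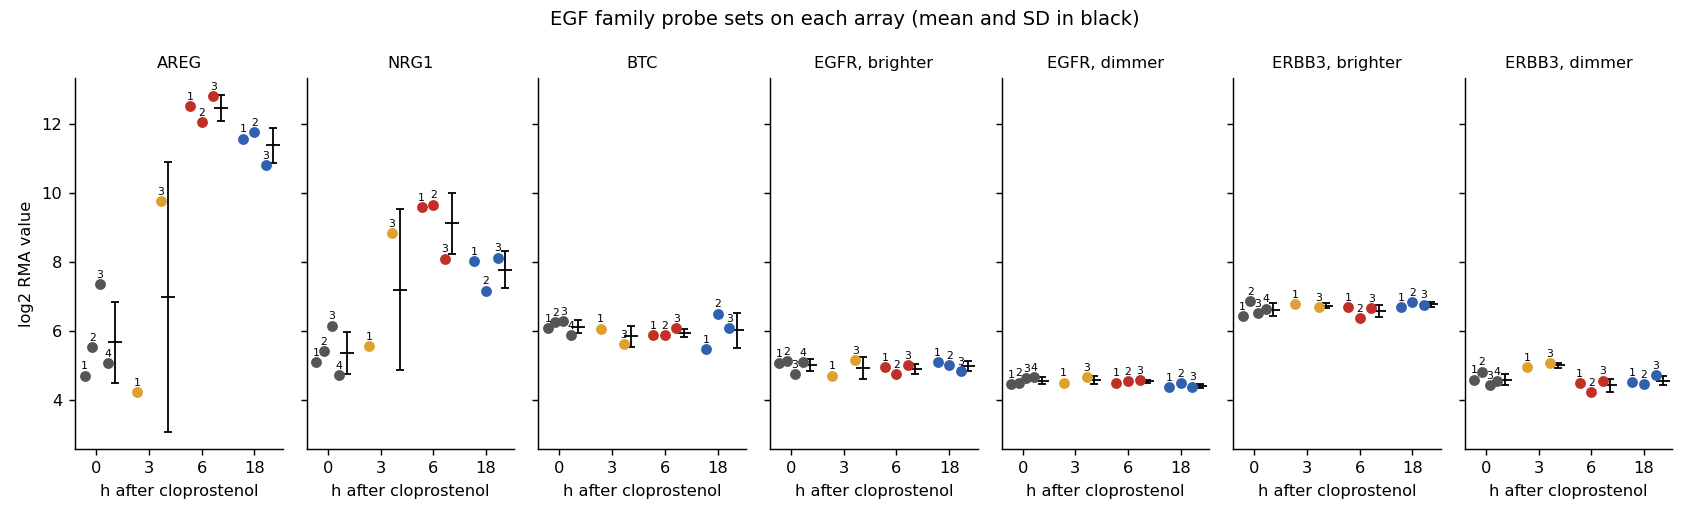
Log2 RMA value (vertical axis) of the 7 EGF family probe sets on each of the 12 arrays, by h after cloprostenol (horizontal axis). Points are arrays labelled with their replicate number, and the black bar beside them is the mean and SD of that time. AREG lies at 12.05 to 12.79 at 6 h and NRG1 at 8.10 to 9.66, while the widest range over the 12 arrays among the probe sets of BTC, EGFR and ERBB3 is 1.03, for BTC.

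NRG1, the ligand neuregulin 1 of ERBB3 and ERBB4, had the same order of group means as AREG on a smaller scale. The NRG1 values were 5.11, 5.42, 6.16 and 4.73 in control replicates 1 to 4, 5.56 and 8.84 in the 3 h replicates 1 and 3, 9.59, 9.66 and 8.10 at 6 h, and 8.03, 7.17 and 8.13 at 18 h. Every 6 h and 18 h array lay above every control. The 6 h and 18 h arrays overlapped, through 6 h replicate 3. The means were 5.36 ± 0.61 at 0 h (SD, n = 4), 7.20 ± 2.32 at 3 h (n = 2), 9.12 ± 0.88 at 6 h (n = 3) and 7.78 ± 0.53 at 18 h (n = 3).

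The NRG1 mean was higher than in controls by 3.76 ± 0.67 at 6 h (13.5-fold) and by 2.42 ± 0.67 at 18 h (5.35-fold). At 3 h the difference was 1.84 ± 0.76. The NRG1 difference between 18 h and 6 h was -1.34 ± 0.71, with overlapping arrays. The SE of NRG1 also pools the 3 h arrays, whose SD was 2.32. Without control replicate 3 the differences from controls were 16.3-fold at 6 h and 6.45-fold at 18 h. In bulk tissue, more cells of a type that holds a transcript and more of it per cell cannot be told apart.

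The 3 h replicates split at both ligands. Replicate 3 was 46.2-fold above replicate 1 for AREG (log2 5.53) and 9.74-fold for NRG1 (log2 3.28). For the other 5 probe sets they differed by 0.09 to 0.46 on the log2 scale, with replicate 3 lower at BTC (5.63 against 6.07) and at the brighter ERBB3 probe set (6.69 against 6.79), and higher at the other 3. Replicate 3 had reached 60.3% of the mean 6 h difference from controls for AREG and 92.8% for NRG1. Replicate 1 stood at -21.4% for AREG, which is below the control mean, and at 5.37% for NRG1. The 3 h means thus describe neither animal. With 3 h replicate 3 left out, the 3 h difference of AREG from controls was -1.45, and with replicate 1 left out it was 4.08. For NRG1 these were 0.20 and 3.49.

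Over the 12 arrays, AREG and NRG1 had a Pearson r of 0.90. Without the 3 h arrays it was 0.92 (n = 10). These points share their arrays and times. After each time's mean was taken off, r was 0.77 over 12 arrays and 0.26 over the 10 arrays other than those of 3 h, so the likeness within times rested on the 3 h arrays.

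**Figure D2:**
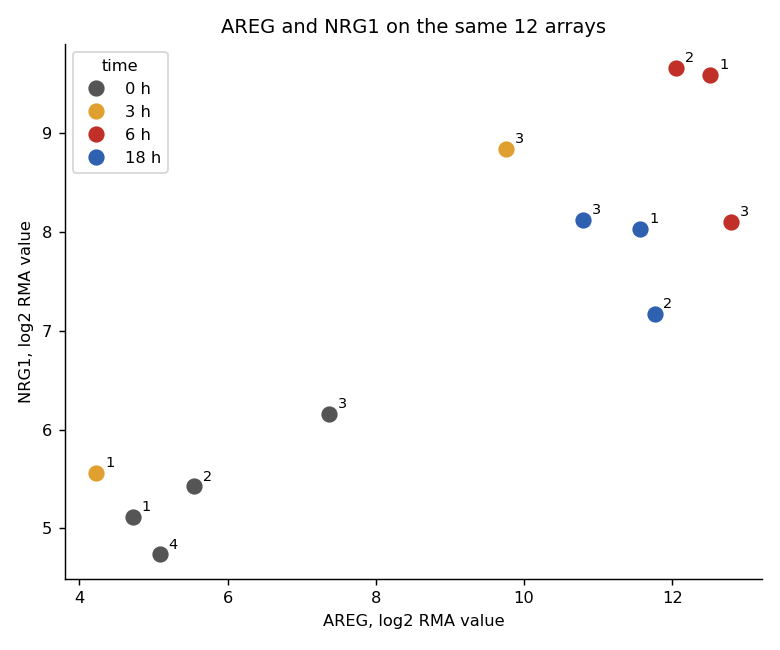
AREG (horizontal axis) against NRG1 (vertical axis), both as log2 RMA values, with 1 point for each of the 12 arrays, in the colour of its time and with its replicate number beside it. The 3 h replicate 1 lies within the controls on the NRG1 axis and below all of them on the AREG axis (4.23), the 3 h replicate 3 lies above every control on both axes and below every 6 h and 18 h array for AREG (9.76), and control replicate 3 is the highest control on both axes.

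BTC, betacellulin, the other ligand measured, did not pass the test at any time. The BTC values were 6.09, 6.27, 6.29 and 5.88 in control replicates 1 to 4, 6.07 and 5.63 at 3 h, 5.89, 5.88 and 6.09 at 6 h, and 5.48, 6.51 and 6.08 at 18 h. Treated and control arrays overlapped at every time, and the 18 h arrays spread most. The log2 difference from controls was -0.28 at 3 h (95% interval -0.81 to 0.24, limma adjusted p = 0.746), -0.18 at 6 h (-0.64 to 0.28, adjusted p = 0.68) and -0.11 at 18 h (-0.57 to 0.35, adjusted p = 0.807). A 1.5-fold lower BTC level thus lies within the interval at 3 h and 6 h.

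EGFR, the receptor of AREG and BTC, was measured by 2 probe sets, both dim. The brighter EGFR probe set was at 5.08, 5.14, 4.75 and 5.10 in control replicates 1 to 4, 4.71 and 5.17 at 3 h, 4.96, 4.75 and 5.03 at 6 h, and 5.11, 5.02 and 4.84 at 18 h. The dimmer EGFR probe set was at 4.46, 4.51, 4.64 and 4.67 in controls, 4.51 and 4.67 at 3 h, 4.51, 4.55 and 4.59 at 6 h, and 4.39, 4.49 and 4.40 at 18 h. For both, the treated arrays overlapped the controls at every time. At 6 h the difference from controls was -0.10 (95% interval -0.41 to 0.20, limma adjusted p = 0.724) for the brighter and -0.02 (-0.21 to 0.17, adjusted p = 0.938) for the dimmer. At 18 h it was -0.03 (-0.33 to 0.28, adjusted p = 0.938) for the brighter and -0.15 (-0.33 to 0.04, adjusted p = 0.325) for the dimmer. At 3 h it was -0.08 (-0.42 to 0.27, adjusted p = 0.92) for the brighter and 0.02 (-0.19 to 0.24, adjusted p = 0.971) for the dimmer.

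Both EGFR probe sets lay below the lower quartile of all values on every array. By mean over the 12 arrays they stood at the 12.7th percentile (dimmer) and the 18.6th percentile (brighter) of all probe sets. No detection call was used here, and whether these probe sets measured EGFR above background was not tested. Their narrow intervals are those of the array values and not of EGFR transcript.

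ERBB3, a receptor of NRG1, also had 2 probe sets. The brighter ERBB3 probe set was at 6.43, 6.88, 6.52 and 6.65 in control replicates 1 to 4, 6.79 and 6.69 at 3 h, 6.69, 6.37 and 6.67 at 6 h, and 6.70, 6.84 and 6.77 at 18 h. Every treated time overlapped the controls. Its difference from controls was 0.12 at 3 h (95% interval -0.18 to 0.42, limma adjusted p = 0.827), -0.04 at 6 h (-0.31 to 0.22, adjusted p = 0.882) and 0.15 at 18 h (-0.11 to 0.41, adjusted p = 0.49).

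The dimmer ERBB3 probe set (13.9th percentile) was highest at 3 h. Its values were 4.60, 4.83, 4.43 and 4.54 in controls, 4.97 and 5.07 at 3 h, 4.50, 4.23 and 4.57 at 6 h, and 4.53, 4.46 and 4.72 at 18 h. Both 3 h arrays lay above every other array. All 12 values of this probe set lay below the lower quartile of all values (5.45). Whether it measured ERBB3 above background was not tested. Over all probe sets, both 3 h arrays lay above every control for 5.71%, every 6 h array lay below both 3 h arrays for 15.3%, and every 18 h array did so for 14.3%. The difference of 0.42 ± 0.14 between 3 h and controls (unadjusted p = 0.0106, limma adjusted p = 0.35) that of -0.58 ± 0.14 between 6 h and 3 h (unadjusted p = 0.00178, adjusted p = 0.127) and that of -0.45 ± 0.14 between 18 h and 3 h (unadjusted p = 0.00948, adjusted p = 0.135) did not pass the test. In the brighter ERBB3 probe set the highest 6 h array and the lower 3 h array were equal to 2 decimals, and the difference between 6 h and 3 h was -0.16 (adjusted p = 0.695).

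Of the 5 tested probe sets 0 were called at any time. At an unadjusted p under 0.05, limma gave 1 of 5 at 3 h, 0 of 5 at 6 h and 0 of 5 at 18 h against 0 h, where 9.89%, 25.2% and 26.1% of all probe sets were under it. It gave 1 of 5 at 6 h against 3 h (12.6% of all), 1 of 5 at 18 h against 3 h (16.1% of all) and 0 of 5 at 18 h against 6 h (11.3% of all). With adjustment the test called 0.0208% of all probe sets at 3 h, 11.3% at 6 h and 12.3% at 18 h against 0 h. Between treated times it called 0.237% at 6 h against 3 h, 2.84% at 18 h against 3 h and 0.45% at 18 h against 6 h, again with 0 of the 5. No interval against controls reached a 2-fold difference, the widest bounds being -0.81 and 0.72 at 3 h, -0.64 and 0.28 at 6 h, and -0.57 and 0.41 at 18 h. A p that misses the threshold does not show that these receptors and BTC were unchanged.

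**Figure D3:**
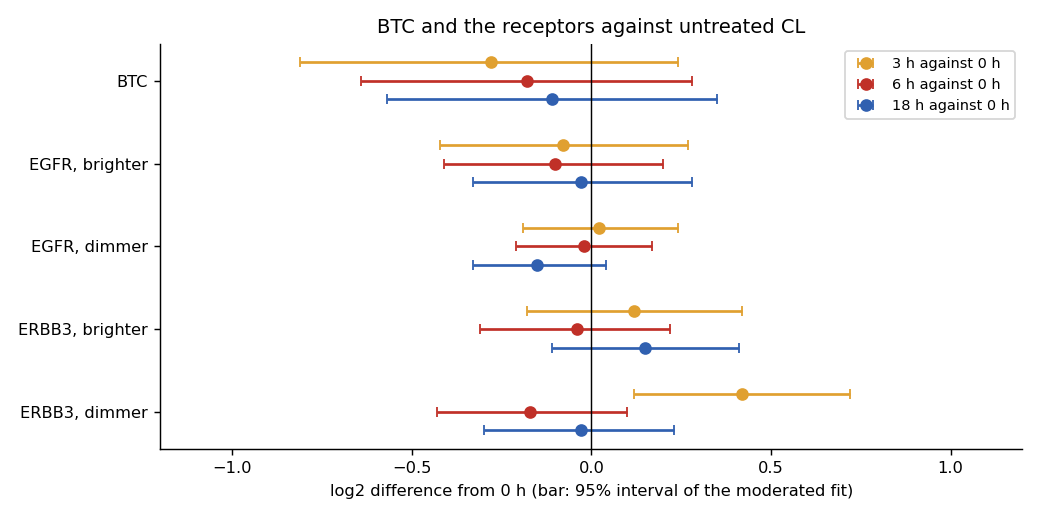
Log2 difference from untreated CL (horizontal axis) of the 5 tested probe sets for BTC, EGFR and ERBB3 (vertical axis), at 3 h, 6 h and 18 h. Points are differences of group means and bars are 95% intervals of the limma fit. All bars cross 0 except that of the dimmer ERBB3 probe set at 3 h (0.12 to 0.72), which did not pass after adjustment.

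Genes with a pattern like that of AREG over the 12 arrays were looked for among 9155 genes, by Pearson r. The nearest were SLC2A1, a glucose transporter (r = 0.986), CHIC2, a membrane-associated protein (0.983), RHEB, a GTPase that activates mTORC1 (0.981), ENC1, an actin-binding kelch protein (0.977), and ITPRIP, a partner of the inositol trisphosphate receptor (0.976). They share the arrays and the time course with AREG, so these r are a description. Their differences from controls were smaller than that of AREG. SLC2A1 was 2.26 above controls at 6 h and 1.81 at 18 h, and ENC1 was 1.83 above at 6 h and 1.67 at 18 h. SLC2A1 also split the 3 h arrays, with 9.77 in replicate 1 and 11.91 in replicate 3.

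Nearest to NRG1 were FOSL1, a subunit of the transcription factor AP-1 (r = 0.987), STX6, a SNARE of the Golgi (0.981), EIF1B, a translation initiation factor (0.973), SLC20A1, a phosphate transporter (0.968), and IFRD1, a transcriptional co-regulator (0.965). FOSL1 was 1.66 above controls at 6 h and 1.01 at 18 h, and IFRD1 was 1.67 above at 6 h and 0.76 at 18 h. Within the family, by 1 probe set per gene, r with AREG was -0.20 for BTC and -0.01 for ERBB3 and EGFR. With NRG1 it was -0.41 for BTC, -0.13 for ERBB3 and -0.12 for EGFR.

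The genes around the receptors were described by 6 lists, with the brightest probe set for each gene. Over all 9155 genes, 6.55% were called higher and 7.66% lower at 6 h, and 7.55% higher and 8.35% lower at 18 h. At 3 h 0.0328% of genes were called, and 0 in any of the 6 lists. The median difference over all genes was -0.05 at 6 h and -0.02 at 18 h.

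Of the further ligands and relatives, 3 of 9 were measured. EGF (0.17 at 6 h), CRIPTO, a co-receptor for nodal (-0.31), and EGFL7, an endothelial secreted protein (-0.26), were not called at 6 h or 18 h. Without control replicate 3, 1 of the 3 was called lower at 6 h.

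Of the genes for ligand shedding, 9 of 13 were measured, 2 were called higher at 6 h, and 3 higher and 1 lower at 18 h (medians 0.17 and 0.26). ADAM19, a metalloprotease that can cleave NRG1, rose to 9.86, 9.26 and 9.11 at 6 h and 9.65, 10.04 and 9.57 at 18 h, against 8.36 to 8.51 in controls. Its differences were 0.95 ± 0.17 at 6 h (limma adjusted p = 0.00658) and 1.29 ± 0.17 at 18 h (adjusted p = 0.000947). ADAM19 was above every control in both 3 h arrays as well (8.79 and 8.86), as were 5.71% of all probe sets. TIMP3, an inhibitor of the AREG sheddase ADAM17, moved the same way, with 1.78 ± 0.38 at 6 h (adjusted p = 0.0142) and 2.12 ± 0.38 at 18 h (adjusted p = 0.00468). Members with opposite roles in shedding thus rose together. FRMD8, which stabilises the ADAM17 complex, was 0.40 ± 0.11 higher at 18 h (adjusted p = 0.0413). ADAM17 itself was not among the 9 genes measured. The gene called lower at 18 h, named after its value was seen, was BACE1, another protease that cleaves NRG1 (-0.43, adjusted p = 0.0427).

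TIMP3 lost its call at 6 h without 6 h replicate 1 (adjusted p = 0.0652) or replicate 2 (0.0656). FRMD8 lost its call in 13 of 20 alternatives (adjusted p = 0.0547 to 0.128), 9 of which left out 1 array other than control replicate 3 or a 3 h array. The BACE1 call was also lost when any 1 of those 9 arrays was left out. Without control replicate 3 or either 3 h array, 1 gene of the list was called lower at 6 h too.

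Of the adaptors and the Ras-ERK cascade, 10 of 18 were measured, with medians of 0.02 at 6 h and 0.04 at 18 h. None was called at 6 h. NRAS, a Ras GTPase, was 0.51 ± 0.08 higher at 18 h (limma adjusted p = 0.00303), with 11.12, 11.06 and 10.99 against 10.47 to 10.64 in controls. At 6 h NRAS was 0.22 above controls and was not called.

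Of the receptor brakes and feedback genes, 11 of 21 were measured, and 2 were called higher at each of 6 h and 18 h (medians 0.50 and 0.23). SPRY1, a Sprouty protein that dampens Ras-ERK signalling, was at 10.66 and 10.98 in the 3 h arrays, 10.99, 10.95 and 10.73 at 6 h, and 10.73, 10.61 and 10.62 at 18 h, against 9.76 to 10.09 in controls. All 8 treated arrays lay above all controls. Taking each time alone, that held for 5.71% of all probe sets at 3 h, 11.1% at 6 h and 11.6% at 18 h. Its differences were 0.98 ± 0.12 at 6 h (limma adjusted p = 0.00119) and 0.75 ± 0.12 at 18 h (adjusted p = 0.00246). Both 3 h arrays had reached most of the 6 h difference of SPRY1 (76.9% and 110%), where AREG stood at -21.4% and 60.3%. SPRED1, a Sprouty relative, was 0.69 ± 0.16 higher at 6 h (adjusted p = 0.0186) and was not called at 18 h (0.16). PTPRK, a phosphatase that acts on EGFR, was 0.66 ± 0.20 higher at 18 h at the edge of the threshold (adjusted p = 0.04998), in 1 of its 2 probe sets. CBLB was not called by its brightest probe set (0.50 at 6 h), and its other probe set was called higher at 6 h.

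SPRED1 lost its call without control replicate 1 (adjusted p = 0.0537) or 6 h replicate 1 (0.0733), and PTPRK in 10 of 20 alternatives (0.0678 to 0.188), among them leaving out control replicate 1, 2 or 4, 6 h replicate 2 or any 18 h array. Without either 3 h array the list count at 6 h was 4, and without those or control replicate 3, 1 gene was called lower at 18 h.

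Of the genes that ERK signalling induces in many cells, 13 of 18 were measured. At 6 h 5 were called higher and 1 lower (median 0.65), and at 18 h 2 were higher and 1 lower (median 0.23). PLAUR, the urokinase receptor, was at 10.49, 10.24 and 10.15 at 6 h and 10.58, 10.32 and 10.00 at 18 h, against 6.91 to 7.96 in controls. Both differences were 2.95 ± 0.37 (limma adjusted p = 0.00147 at 6 h and 0.000791 at 18 h). FOSL1 was at 9.39, 9.32 and 8.76 at 6 h, against 7.21 to 7.74 in controls (1.66 ± 0.34, adjusted p = 0.0117), and was not called at 18 h (adjusted p = 0.0785). IER3, an immediate early gene, was called higher at 18 h (1.44 ± 0.31, adjusted p = 0.0112) and not at 6 h (0.81, adjusted p = 0.124), and the difference between 18 h and 6 h did not pass (adjusted p = 0.517).

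CCND1, the G1 cyclin, went against the other called genes of that list. It was at 6.09, 6.24 and 6.19 at 6 h and 5.98, 6.21 and 5.78 at 18 h, against 6.74 to 7.50 in controls. It fell by 0.90 at 6 h (SE 0.16, limma adjusted p = 0.00674) and by 1.08 at 18 h (SE 0.16, adjusted p = 0.00183). The other genes of the list called higher at 6 h, named after their values were seen, were MYC (1.26, limma adjusted p = 0.044), MCL1 (0.95, 0.034) and EPHA2 (0.74, 0.0211). Each lost its call with control replicates 1 and 4 averaged. MYC also lost it without control replicate 1, 2 or 4 or any 6 h or 18 h array, and with trend and robust settings. MCL1 lost it without control replicate 1, 2 or 4 or any 6 h array. EPHA2 lost it without control replicate 1 or 4, or 6 h replicate 1 or 2.

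FOSL1 lost its call at 6 h without 6 h replicate 1 (adjusted p = 0.0515) or replicate 2 (0.0524), and IER3 at 18 h without 18 h replicate 1 (0.0548). The count of 5 at 6 h was 2 without control replicate 1 or 4, 3 without control replicate 2, and 1, 2 and 3 without 6 h replicates 1, 2 and 3, and the count of 2 at 18 h was 1 without 18 h replicate 1. Without either 3 h array FOSL1 was called at 18 h (0.00484) and IER3 at 6 h (0.0338). Without control replicate 3 the lower count at 18 h was 3.

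The cumulus expansion genes, some of which EGF family ligands induce in the ovulatory follicle of mice, were all measured (8 of 8). At 6 h 2 were called higher and at 18 h 2 (medians 1.18 and 0.58). CD44, the hyaluronan receptor, was at 10.49, 10.39 and 10.31 at 6 h and 11.59, 10.18 and 11.62 at 18 h, against 6.37, 7.27, 9.39 and 6.23 in control replicates 1 to 4. Control replicate 3 was again the highest control. The CD44 differences were 3.08 ± 0.64 at 6 h (limma adjusted p = 0.012) and 3.82 ± 0.64 at 18 h (adjusted p = 0.00323). TNFAIP6, which cross-links hyaluronan, was higher at 6 h by 1.97 ± 0.46 (adjusted p = 0.0195) and was not called at 18 h (0.58). HAS2, a hyaluronan synthase, was higher at 18 h by 0.59 ± 0.16 (adjusted p = 0.0334), in 2 of its 3 probe sets. PTGS2, VCAN and PTX3, the prostaglandin, matrix and pentraxin genes of this list, were at 1.19, 1.18 and 2.16 at 6 h and were not called. At 18 h they were at 0.84, 1.36 and -1.01 and were not called by the brightest probe set. VCAN (adjusted p = 0.051) was called higher at 18 h in 2 of its 3 probe sets. ADAMTS1 (0.34 at 6 h and -0.31 at 18 h) and ITIH2 (-0.05 and 0.01) were not called. ITIH2 was near the bottom of the scale in controls (4.14).

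TNFAIP6 lost its call without control replicate 2 (adjusted p = 0.0511), 6 h replicate 2 (0.0823) or 6 h replicate 3 (0.0667), and HAS2 in 8 of 20 alternatives (0.0547 to 0.137), among them leaving out control replicate 1, 2 or 4 or 18 h replicate 1 or 3. Without control replicate 3 the count at 6 h was 5, with HAS2 among them (adjusted p = 0.0188).

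**Figure D4:**
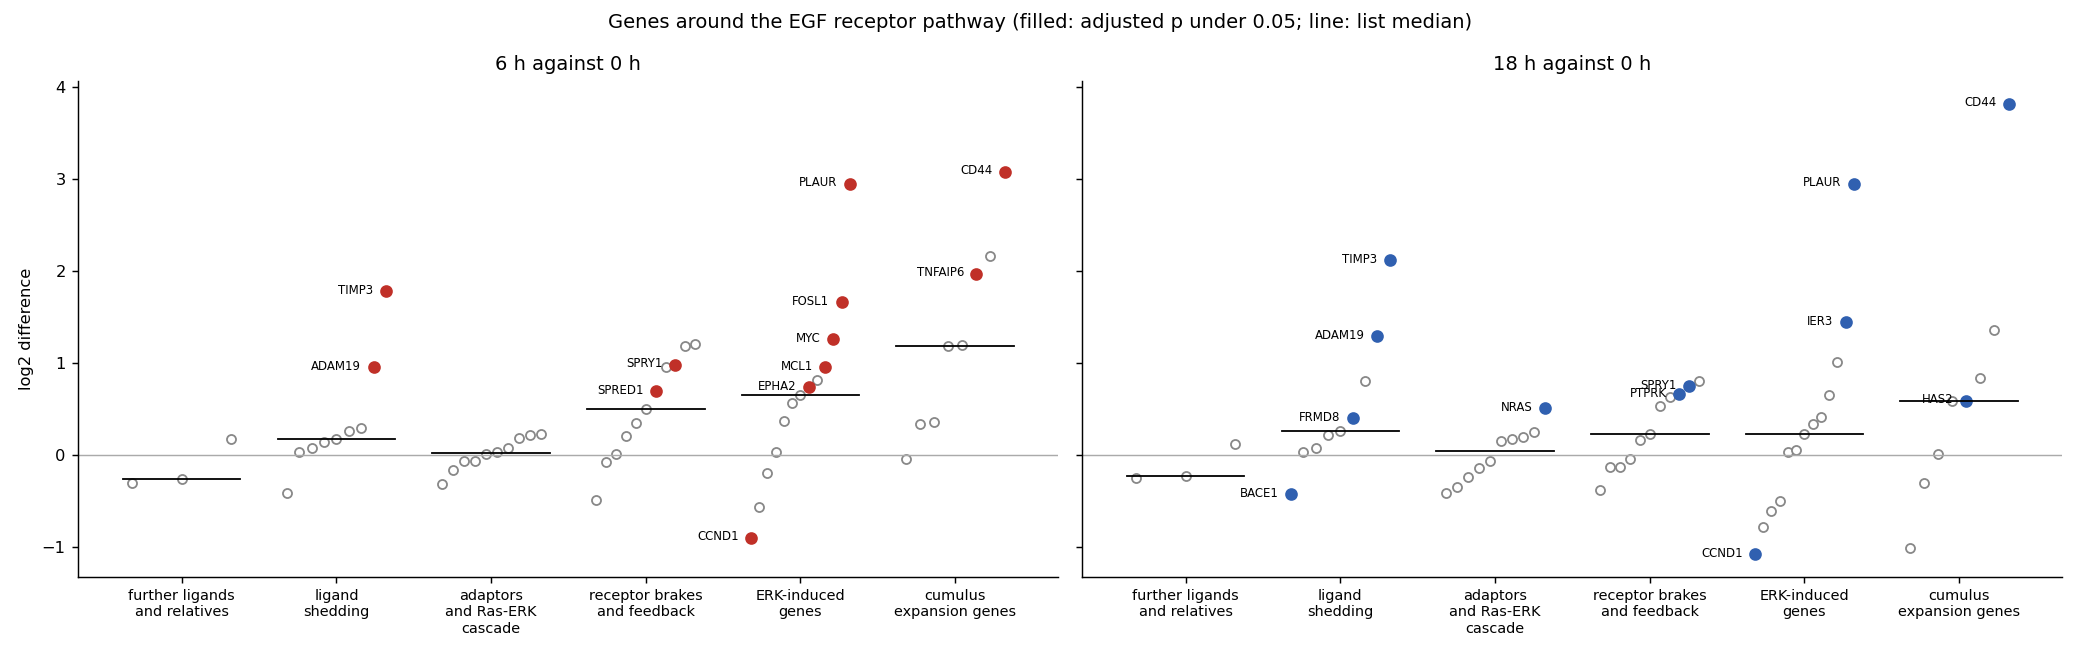
Log2 difference (vertical axis) of each gene of 6 lists (horizontal axis) at 6 h against 0 h and at 18 h against 0 h. Each point is a gene, filled and named where the limma adjusted p was under 0.05, and the black line is the list median. PLAUR and CD44 are the highest points in both panels and CCND1 the lowest called one.

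Cell markers moved over the same times as AREG and NRG1, and their part in these results was not tested. Beside the marker counts, 6.55% of all genes were called higher at 6 h and 7.55% at 18 h. Called lower were 7.66% at 6 h and 8.35% at 18 h. The mean over 8 luteal steroidogenic markers was 12.75 to 13.16 on the 6 h arrays and 12.35 to 12.85 at 18 h, against 13.24 to 13.73 in controls, with 2 of 8 called lower at 6 h and 5 of 8 at 18 h. The mean over 7 endothelial markers was 8.85 to 9.10 at 6 h and 8.92 to 9.06 at 18 h, against 8.35 to 8.78 in controls. At 6 h 3 of 7 were called higher (PECAM1, TEK and VWF), and 4 of 7 at 18 h, when TEK was not called (0.30). VWF was called in 1 of its 2 probe sets at both times. CDH5 was not called by its brightest probe set, and its other probe set was called higher at both times. KDR lay below controls at 6 h and 18 h (-0.47 and -0.53) and was not called. The macrophage and monocyte markers overlapped the controls through control replicate 3, at 8.62 to 8.97 at 6 h and 8.93 to 9.78 at 18 h, against 7.91 to 9.30, and ITGAM among them was near the bottom of the scale in controls (4.07). Of these 6 markers, 1 was called higher at 6 h, CD14 (2.25), and 2 at 18 h, CD14 and CD68 (2.64 and 1.60). At 6 h CD68 (0.47), CSF1R (0.04), AIF1 (-0.01), MSR1 (-0.05) and ITGAM (-0.02) were not called. At 18 h CSF1R (0.34), AIF1 (0.70), MSR1 (0.89) and ITGAM (-0.03) were not called.

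The macrophage and monocyte mean did not separate the 3 h arrays, which stood at 8.79 in replicate 1 and 8.74 in replicate 3. The same held for the endothelial mean (8.69 to 8.72) and the luteal mean (13.34 to 13.43), while the mean over 4 neutrophil and mast cell markers was 10.51 in replicate 3 and 9.33 in replicate 1, split in the same direction as AREG and NRG1, with 9.63 to 10.00 in controls. The part of these cells in the split was not tested. Follicle cell markers were at 6.85 to 7.02 at 6 h and 6.55 to 7.07 at 18 h, against 6.97 to 8.26 in controls, with 2 of 5 and 1 of 5 called lower.

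Among the remaining lists, stromal and mural markers had 0 of 7 called at 6 h and 2 of 7 higher at 18 h, and lymphocyte markers 0 of 6 at both times. Of 4 epithelial markers, CDH1 (2.09, in 1 of its 2 probe sets) and EPCAM (0.67) were called higher at 18 h. The list mean was then 6.25 to 6.39, against 5.43 to 5.76 in controls. KRT19 (-0.14) and KRT7 (0.07) were not called, and EPCAM was near the bottom of the scale in controls (3.97). Of 2 Schwann cell markers, S100B was called higher at both times. KIT, a mast cell marker, was the neutrophil and mast cell gene called at 6 h (1.09). In the same list TPSB2 (0.01), S100A8 (-0.04) and S100A9 (0.55) were not called at 6 h.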

How the data were processed

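RNA of 12 CL, 1 array per animal, had been hybridised to the Affymetrix Bovine Genome Array. The authors' deposited values are log2 RMA values (background correction, normalization across arrays and 1 summary per probe set). RMA pulls low signals together, so differences of dim probe sets can be understated. The RMA software version is not given in the sources used here. Of 24128 probe sets, 112 control probe sets were left out. The annotation gave 1 symbol for 13292 probe sets, several for 86 and none for 10638.

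In R 4.3.3 with limma 3.58.1, 4 group means were fitted to the 12 arrays (lmFit, contrasts.fit, eBayes, two-sided), and p-values were adjusted by Benjamini-Hochberg over 24016 probe sets within each comparison and called under 0.05. For lists, each of 9155 genes was its probe set with the highest mean. The genes named were the family, up to 3 called genes of each list with the lowest adjusted p at each of 6 h and 18 h, and the 5 genes most like AREG and NRG1. Genes named after their values were seen are marked or are list members given as examples. Members and lists were chosen with earlier results of these data known. The fit was tested on simulated data with added changes. Against 0 h it called 16% of log2 changes of 0.5 at 3 h, 18% at 6 h and 28% at 18 h. Of log2 changes of 1 it called 68%, 76% and 82%. Small changes are thus mostly missed. The number of arrays limits the precision.

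The alternatives left out the 40% of probe sets with the lowest means, or used quantile normalization, median centring, trend and robust settings, only the times compared, the replicate number as a block, control replicates 1 and 4 averaged, gene values averaged over probe sets, and each array left out in turn. The paper supplied reports another experiment and gave no methods here.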

Additional observations from a re-analysis of the deposited data

Results flagged for a closer look

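For the dimmer ERBB3 probe set, the 3 h arrays lay above the control mean and the 6 h arrays below it, with a difference of -0.58 between 6 h and 3 h (limma adjusted p = 0.127). For the brighter EGFR probe set, control replicate 3 (4.75) lay apart from the other controls (5.08 to 5.14), with a gap of 0.844 of the group's range. Chance gives such a gap in about 1 in 20 groups. NRAS and PTPRK lay on opposite sides of the control mean at 6 h and 3 h, higher at 6 h by 0.31 (adjusted p = 0.23) and 0.44 (adjusted p = 0.474). CCND1 was lower at 6 h than at 3 h, with a log2 difference of -1.14 (adjusted p = 0.044), a call lost in 13 of 20 alternatives, among them leaving out control replicate 2 or 4, 3 h replicate 1, or any 6 h or 18 h array (adjusted p = 0.0503 to 0.138).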

How the results depend on the processing

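Under all 20 alternatives, 0 of the 5 tested family probe sets were called in any of the 6 comparisons between times, of which that of 18 h with 3 h was added after seeing the data, and the differences of AREG and NRG1 from controls at 6 h and 18 h stayed positive. The filter on dim probe sets left out BTC, both EGFR probe sets and the dimmer ERBB3 probe set, so it bears on 1 of the 5. Leaving out 1 array, AREG ranged from 6.45 to 7.34 at 6 h and 5.38 to 6.26 at 18 h, and NRG1 from 3.49 to 4.27 and 2.21 to 2.72. Some small differences of tested probe sets changed sign. With gene values averaged over probe sets, ERBB3 was 0.06 at 18 h against 0 h, and EGFR was -0.03 at 3 h against 0 h and -0.03 at 18 h against 6 h. The dimmer EGFR probe set at 6 h against 0 h was 0.01 with quantile normalization and 0.00 with median centring. Leaving out 1 array, BTC ranged from -0.35 to 0.16 at 18 h and -0.12 to 0.33 at 6 h against 3 h and -0.18 to 0.34 at 18 h against 6 h. The dimmer EGFR probe set ranged from -0.06 to 0.10 at 3 h, -0.05 to 0.02 at 6 h and -0.12 to 0.04 at 6 h against 3 h. The brighter EGFR probe set ranged from -0.31 to 0.15 at 3 h, -0.12 to 0.05 at 18 h, -0.25 to 0.20 at 6 h against 3 h and 0.00 to 0.15 at 18 h against 6 h. ERBB3 ranged from -0.11 to 0.06 at 6 h (brighter) and from -0.11 to 0.04 at 18 h (dimmer), and FRMD8 from -0.03 to 0.15 at 6 h. Over all probe sets, averaging control replicates 1 and 4 gave 1376 calls at 6 h and 1856 at 18 h against 0 h, where 2724 and 2964 were called with both kept.

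Same-numbered arrays showed little shared deviation (15 pairs, r of deviations from -0.26 to 0.19, 3 over 0.1). Deviations cancel within each time, so these r cannot exclude a link by number. The numbers were taken as names of animals. With the replicate number as a block, which leaves control replicate 4 without influence, 870 probe sets were called at 6 h and 1480 at 18 h against 0 h, 2 at 3 h against 0 h, 3 at 6 h against 3 h and 10 at 18 h against 6 h. In that fit AREG was 6.58 above controls at 6 h and NRG1 3.55, and 0 of the 5 tested family probe sets were called. EGFR was 0.02 at 6 h (dimmer) and 0.00 at 18 h (brighter). Calls lost under the block were TIMP3 (adjusted p = 0.071), FOSL1 (0.0681), SPRED1 (0.0505), CD44 (0.0505), MYC (0.0811), MCL1 (0.0817) and EPHA2 (0.0913) at 6 h, IER3 (0.0594), FRMD8 (0.106), PTPRK (0.188), HAS2 (0.0961) and BACE1 (0.0731) at 18 h, and CCND1 at 6 h against 3 h (0.123). The causes of these changes were not tested. The 2 to 4 animals per time, the dim EGFR probe sets and the dimmer ERBB3 probe set limit what can be seen.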
